A study of Arabidopsis thaliana with 18 samples.

Results

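The 200 genes described here are Arabidopsis genes that the array annotation names only by a locus code and whose signal was much higher on day 5 than on day 1 in salt-treated leaves. The annotation gives 13350 genes a probe set of their own, and the 200 were chosen from the 6187 of them with only a locus code, each represented by its probe set with the highest mean, with a mean log2 signal of at least 4.01 over the 18 arrays. The score of a gene was the smaller of its mean difference, day 5 minus day 1, in leaves given salt and the EAA fraction and in leaves given salt alone (the NaCl group), and the 200 highest scores were taken. AT5G48570, AT5G38710, AT4G14090 and the ATG8 genes were left out beforehand. The values of the EAA and NaCl arrays therefore chose the genes and are given as a description, with no test. The 6 MEA arrays did not enter the score, and their difference between the days is the comparison that was tested. They did enter the means over the 18 arrays that set the choice of probe set and the signal minimum.

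Leaves of Arabidopsis thaliana were profiled with 18 Affymetrix arrays, 1 per sample. All plants were 2 weeks old and all had 150 mM NaCl for 24 hours first. They then received the ethyl acetate sub-fraction of the brown alga Ascophyllum nodosum (EAA), its methanol extract (MEA) or, as the control called NaCl here, 0.1% aqueous methanol, and each treatment was sampled on day 5 and on day 1 with 3 arrays per group. No group without salt was analysed here, so the effect of salt itself cannot be read from these arrays. The 6 NaCl arrays carry conflicting labels: their source name gives NaCl with no extract, whereas their titles and descriptions give EAA. They are grouped by the source name, and which label is right was not tested. Each title has the words biological rep and a number, but nothing says that replicates were separate plantings, so p-values measure only the spread between these samples, which may be technical.

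A locus code gives the chromosome in its first digit and the order along that chromosome in the digits that follow, so a gene can be followed without a symbol. Lack of a symbol in an array annotation does not mean that the gene's product is unknown. Salt takes water from leaf cells and loads them with sodium, and leaves answer in large part through the hormone abscisic acid. Leaves also mature during such an experiment, and ageing leaves reduce photosynthesis and move nitrogen and sugars to growing organs. A difference between days therefore holds age, time since the salt and time since the extract together, which cannot be told apart in this design.

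RefSeq lists 199 of the 200 genes as protein-coding and 1, AT3G15310, as a pseudogene. The gene table gives a name to only 2 of them. AT2G26690 is NPF6.2 of the NRT1/PTR family, whose members carry nitrate, peptides and other substrates across membranes. AT3G13672 is SINA2, of a family whose founder in Drosophila is a ubiquitin ligase. The remaining genes are given by locus code alone, and no function is assigned to them here.

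The arrays themselves set a limit that touches every MEA value. Over all kept probe sets, arrays of a group correlated at 0.836 to 0.964 in the MEA day 5 group and at 0.958 or above in the other groups. The difference between the 3' and 5' probe sets of actin, a measure of RNA integrity, was 2.88, 1.56 and 2.30 (log2) in MEA day 5 replicates 1, 2 and 3. It was 2.78 in EAA day 5 replicate 1 and 1.56 to 2.03 in the 15 arrays that comprise MEA day 5 replicate 2 and the rest. The same measure for GAPDH was 1.06, 0.11 and 0.30 in MEA day 5 replicates 1, 2 and 3, 0.79 in EAA day 5 replicate 1 and -0.13 to 0.50 in those 15 arrays. MEA day 5 replicate 3 thus lay inside that range for GAPDH and above it for actin. Of 8 leaf genes listed 1 was measured, RCA, which encodes Rubisco activase. RCA read 13.3 to 14 in every array and was higher on day 5 with NaCl by 0.55 (SE 0.11, limma adjusted p = 0.00175). Its differences of 0.26 with EAA and 0.23 with MEA did not pass (limma adjusted p = 0.0731 and 0.248). Of 6 root genes listed only PYK10 had a named probe set, and it read 2.95 to 3.97, below the signal minimum. None of the seed and flower genes listed had a named probe set. Of 3 guard cell genes listed 2 were measured: FMA read 4.38 to 5.28, and AT1G22690 was lower on day 5 with EAA (-1.50, SE 0.51, limma adjusted p = 0.0309). The part of such cells in the values below was not tested. In these bulk samples fewer cells of a type and less RNA per cell cannot be told apart.

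The 200 genes lay mostly above the middle of the signal range on day 5 and mostly below it on day 1. Averaged over the EAA and NaCl arrays, their median log2 signal was 7.86 on day 5, with a range of 5.16 to 11.8, and 5.85 on day 1, with a range of 3.31 to 10.1. The median of all kept probe sets was 6.57 on day 5 and 6.62 on day 1. On day 5, 174 of the 200 lay above the all-probe-set median, and on day 1, 135 of the 200 lay below it. In 17 genes the EAA or the NaCl day 1 mean was under 4.01, near the low end of the array, so the size of their difference is uncertain.

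**Figure D1:**
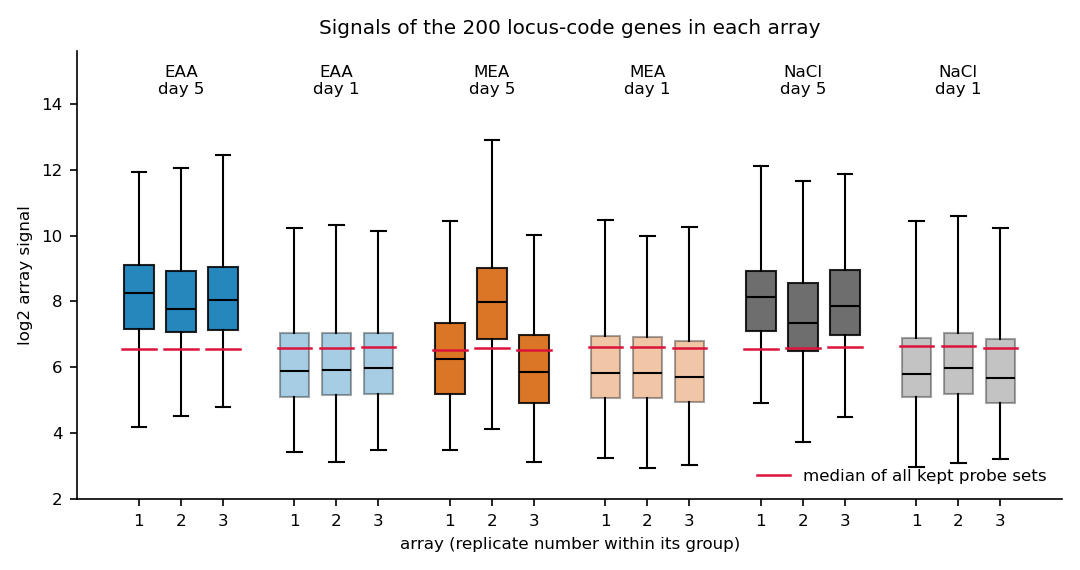
Log2 signals of the 200 genes in each of the 18 arrays, with replicate numbers on the horizontal axis; boxes span the quartiles, whiskers the whole range, black lines are medians and red lines the median of all kept probe sets. The median of the 200 genes lay at 7.99 in MEA day 5 replicate 2, near the EAA and NaCl day 5 arrays, and at 6.25 and 5.86 in MEA day 5 replicates 1 and 3.

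The same division appears array by array in the plot of signals of the 200 genes. With EAA the median over the genes was 8.26, 7.76 and 8.05 in the 3 day 5 arrays and 5.90, 5.92 and 5.99 in the 3 day 1 arrays. With NaCl it was 8.15, 7.34 and 7.87 on day 5 and 5.79, 5.99 and 5.68 on day 1. With MEA it was 6.25, 7.99 and 5.86 on day 5 and 5.83, 5.83 and 5.72 on day 1. Replicate 2 of the MEA day 5 group thus lay among the day 5 arrays of the other treatments, whereas replicates 1 and 3 lay near the day 1 arrays. The medians of all kept probe sets ran only from 6.51 to 6.64 over the 18 arrays.

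In the arrays that chose the genes, the difference between days had a median of 1.77 with EAA (quartiles 1.49 and 2.34, highest 5.50) and of 1.74 with NaCl (quartiles 1.41 and 2.19, highest 4.51), on the log2 scale. The medians over all kept probe sets were -0.02 with EAA and -0.01 with NaCl. The 3 day 5 arrays lay above all 3 day 1 arrays for 199 of the 200 genes with EAA and for 194 with NaCl, where 26.5% and 25.1% of all kept probe sets did so. These counts follow from the choice of the genes and nothing is read from them. The score ran from 3.13 to 1.11 with a median of 1.51. It was 2 or more in 41 genes, 1.5 to 2 in 61 and below 1.5 in 98.

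At the threshold the ranking was continuous. The last genes taken were AT1G63840, AT3G46450 and AT4G15430, with scores of 1.12, 1.12 and 1.11. The first genes not taken were AT3G19030, AT3G05640 and AT1G72060, with scores of 1.11 each. The boundary thus separates genes that hardly differ in score.

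The highest score belonged to AT5G15950. Its signal with EAA was 10.28, 10.45 and 10.76 on day 5 and 7.32, 7.17 and 7.61 on day 1. With NaCl it was 11.16, 10.52 and 10.65 on day 5 and 6.56, 5.96 and 6.28 on day 1, a difference of 4.51. With EAA and with NaCl the days were far apart and the 3 arrays of a day lay close together. AT1G64500 came next, with 9.04, 9.02 and 9.12 on day 5 and 6.18, 5.78 and 5.94 on day 1 with EAA. Its NaCl signals were 9.31, 9.50 and 9.22 on day 5 and 4.88, 4.93 and 5.42 on day 1. Its day 5 levels were almost equal in both treatments, and the day 1 level was lower in NaCl.

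Some high-scoring genes had low signals on day 1. The pseudogene AT3G15310 read 6.37, 6.63 and 6.62 on day 5 and 3.55, 3.28 and 3.91 on day 1 with EAA. In NaCl it read 6.82, 7.03 and 6.35 on day 5 and 2.98, 3.11 and 3.23 on day 1. All 6 day 1 signals were below the signal minimum of 4.01, so its difference of 3.62 in NaCl is of uncertain size. AT2G27420 was likewise low on day 1, at 3.44, 3.13 and 3.51 with EAA and 3.13, 3.39 and 3.29 with NaCl. Its day 5 arrays spread widely with EAA, at 4.44, 5.94 and 7.98, against 6.75, 7.91 and 6.26 with NaCl, and the treatments overlapped.

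AT2G15020 differed between the days by 2.73 with EAA and by 4.33 with NaCl. It read 8.60, 8.76 and 8.94 on day 5 and 6.16, 5.96 and 5.98 on day 1 with EAA. In NaCl it read 9.00, 9.40 and 8.53 on day 5 and 4.68, 4.52 and 4.75 on day 1. The day 5 values of the treatments overlapped, and the day 1 values did not. The remaining genes among the 25 highest scores had differences of 2.40 to 4.63 with EAA and 2.39 to 4.02 with NaCl.

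**Figure D2:**
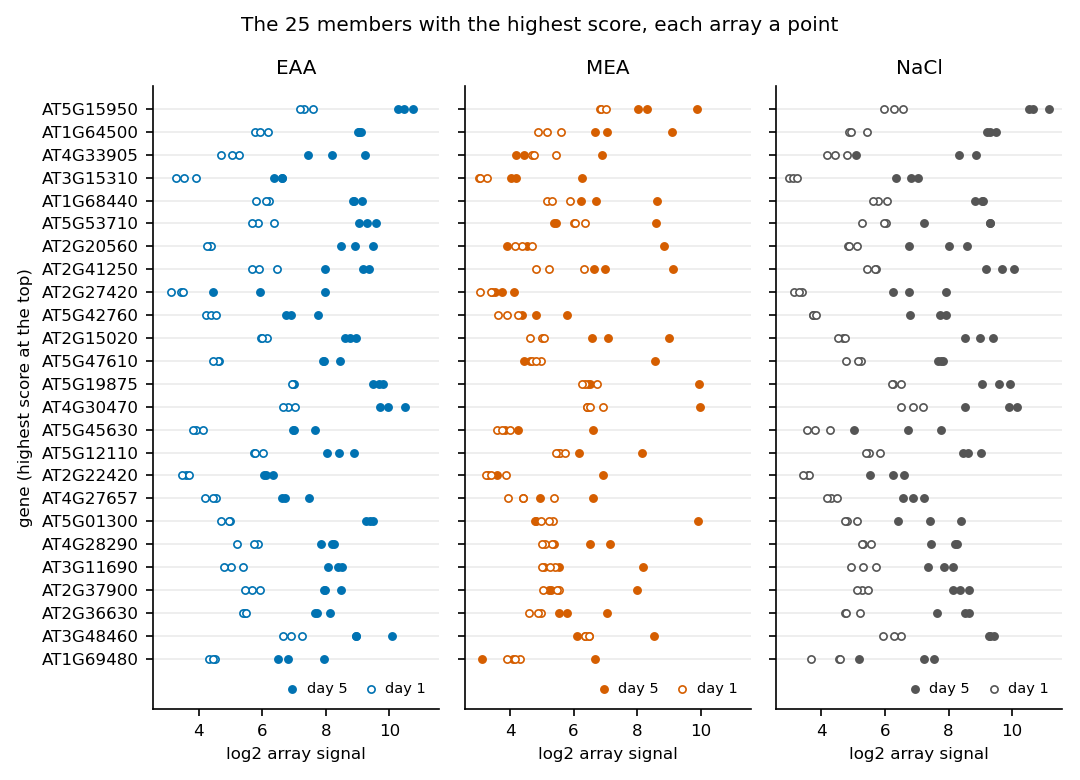
Log2 signals of the 25 genes with the highest score, in rows from the highest score at the top, with each array a point and filled points for day 5, open points for day 1, in panels for EAA, MEA and NaCl. For AT5G15950 the MEA day 5 arrays read 8.03, 9.90 and 8.30, above its 3 day 1 arrays, and in many other rows a single filled MEA point lies far to the right of the rest.

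Of the 2 genes with a RefSeq name, AT2G26690 (NPF6.2) read 9.86, 10.30 and 10.39 on day 5 and 8.29, 7.79 and 8.41 on day 1 with EAA. In NaCl it read 10.16, 10.21 and 10.30 on day 5 and 8.16, 7.72 and 7.76 on day 1. With MEA it read 7.96, 10.51 and 8.21 on day 5 and 7.79, 7.67 and 7.77 on day 1, a difference of 1.15 (SE 0.45, limma adjusted p = 0.161). All 3 MEA day 5 arrays of this transporter gene lay above its day 1 arrays, replicates 1 and 3 only narrowly. AT3G13672 (SINA2) read 10.09, 9.20 and 9.04 on day 5 with EAA and 5.90 to 6.14 on day 1. In NaCl it read 8.67, 7.13 and 8.50 on day 5 and 5.93 to 6.70 on day 1. With MEA it read 6.46, 9.83 and 5.32 on day 5 and 6.94, 5.94 and 5.95 on day 1, and the days overlapped.

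The differences between days with EAA and with NaCl lay within 0.5 of each other in 124 genes and within 1 in 173. Pearson's r between both differences was 0.50 over the 200 genes, which share their arrays and were all chosen for high values of each, so the coefficient is a description only. The EAA difference was the larger one in 108 genes and the NaCl difference in 92. It was larger by at least 1 with EAA in 18 genes and with NaCl in 9. These sets were formed after the values had been seen and carry no test.

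**Figure D3:**
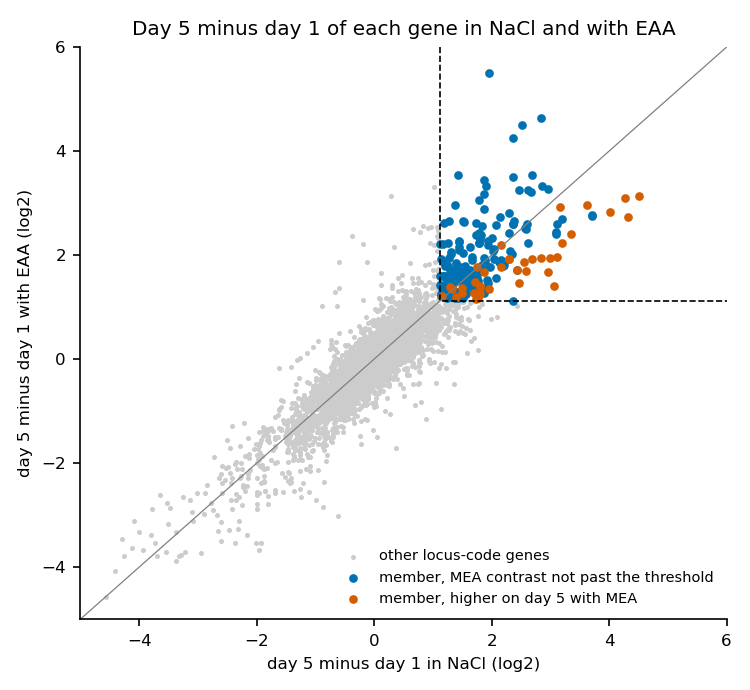
Mean day 5 minus mean day 1 (log2) with NaCl on the horizontal and with EAA on the vertical axis for the locus-code genes the rule could choose from; grey points were not taken, orange points are genes higher on day 5 with MEA at an adjusted p under 0.05 and blue points the others of the 200. Dashed lines mark the lowest score taken, 1.11, and 33 of the 38 orange points have the larger difference in NaCl, below the diagonal.

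The 200 were on balance higher on day 5 in the MEA arrays. These arrays did not enter the score but did enter the mean signal used for the signal minimum. The sizes of the EAA and NaCl differences were favoured by the choice of the genes, so the MEA difference is not set against them. The difference between days had a median of 0.74 over the 200 genes (quartiles 0.49 and 1.03, lowest -0.65, highest 2.64), against -0.04 over all kept probe sets. It was above 0 in 192 of the 200, where 45% of all kept probe sets were above 0. Without MEA day 5 replicate 2 the sign differed in 69 of the 200, and without any other single MEA replicate in 3 to 5. The matching shares of all kept probe sets are not given here. The limma fit over all 13648 kept probe sets and 18 arrays called 38 of the 200 higher on day 5 with MEA at an adjusted p under 0.05, or 19%, against 1.59% of all kept probe sets. None was called lower, where 2.33% of all kept probe sets were, and none was lower at an unadjusted p under 0.05 either. Without MEA day 5 replicate 2, however, 3 were called lower: AT3G28270, AT4G30460 and AT3G09440, at limma adjusted p-values of 0.013, 0.0197 and 0.0234. The share of all kept probe sets called lower in that fit is not given here, so nothing is read from this count. At that unadjusted threshold 78 were higher, where 7.76% of all kept probe sets were. All 3 MEA day 5 arrays lay above all 3 day 1 arrays for 63 genes, or 31.5%, where 8% of all kept probe sets did so.

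These counts depended on which arrays entered. A fit of the 6 MEA arrays alone called none of the 200, and none of the 13648, the smallest adjusted p being 0.085. In it 49 of the 200 were higher and none lower at an unadjusted p under 0.05, where 3.55% of all kept probe sets were higher. Without the 6 NaCl arrays, whose labels conflict, 16 were called, all among the 38. Without MEA day 1 replicate 1, 2 or 3 the count was 17, 20 or 10, without MEA day 5 replicate 3 it was 78, and without MEA day 5 replicates 1 or 2 it was 40 or 32. Of all kept probe sets 0.366% to 4.92% were called higher in these 6 fits, and 0.55% without the NaCl arrays. The fit shares 1 spread over all its groups, while the median SD of the 200 genes was 1.03 in the MEA day 5 group, 0.26 and 0.37 in the EAA and NaCl day 5 groups and 0.15 to 0.20 on day 1.

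Most of the MEA difference came with replicate 2. With replicates 1 and 3 both left out, the median difference of the 200 genes was 1.93 and 185 were called higher, or 92.5%, where 18.8% of all kept probe sets were. That fit has 1 MEA day 5 array, which is assumed to vary like the other groups. Without replicate 2 the median difference was 0.13. The 32 genes called without replicate 2 were all among the 38.

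To place each MEA day 5 array, the mean of the EAA and NaCl arrays was set to 1 on day 5 and to 0 on day 1 for every gene. On this scale the median over the 200 genes was 0.11, 1.02 and -0.04 in MEA day 5 replicates 1, 2 and 3. A place above 0.5 was reached by 12, 186 and 6 genes in these arrays. Replicate 2 was the highest of the 3 arrays in 192 genes, and in 58 genes replicates 1 and 3 both lay below 0. The actin 3' to 5' difference was higher in replicates 1 and 3 (2.88 and 2.30) than in replicate 2 (1.56), and its part in this was not tested. The GAPDH difference was higher in replicate 1 (1.06) than in replicates 2 and 3 (0.11 and 0.30).

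**Figure D4:**
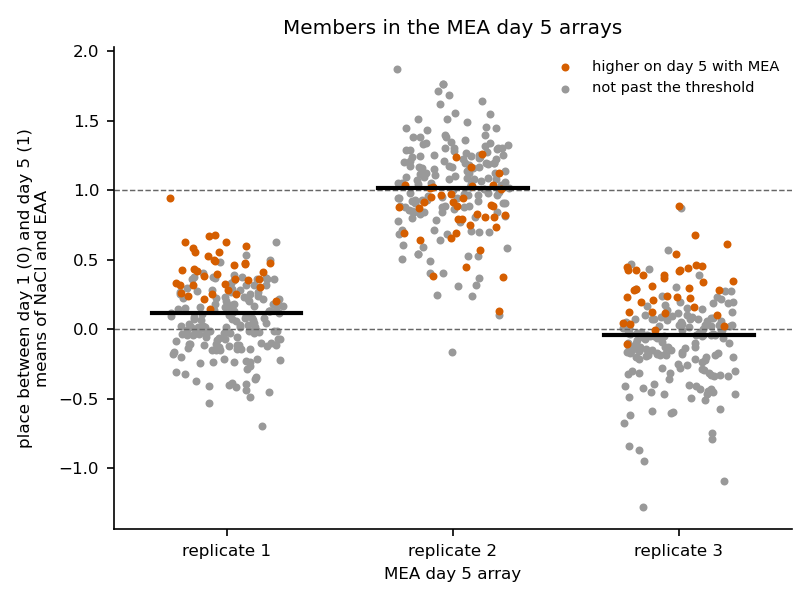
Place of each of the 200 genes in the 3 MEA day 5 arrays, where 1 is its mean on day 5 and 0 its mean on day 1 over the EAA and NaCl arrays; black bars are medians, orange points are the 38 genes higher on day 5 with MEA and grey points the others. The medians lie at 0.11, 1.02 and -0.04, and the orange points of replicates 1 and 3 lie mostly above the grey ones.

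The 38 genes called higher with MEA differed from the others in replicates 1 and 3, which is part of what the test measures. Their median place was 0.41, 0.88 and 0.29 in replicates 1, 2 and 3, against 0.02, 1.07 and -0.10 in the 162 genes not called. In replicate 2 the called genes thus had the lower median. Their MEA difference ran from 0.76 to 2.64 with a median of 1.33.

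AT1G65490 had the smallest p of the 200. With MEA it read 10.44, 9.94 and 9.77 on day 5 and 8.49, 8.36 and 8.43 on day 1, and it rose by 1.62 (SE 0.15, limma adjusted p = 0.000116). All 3 arrays of day 5 lay more than 1 above those of day 1, and without replicate 2 the difference was 1.67. Its day 5 signals were 10.59, 10.83 and 10.73 with EAA and 11.47, 11.65 and 11.76 with NaCl, so that the MEA and EAA arrays were all below the NaCl arrays.

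AT2G15020 and AT1G64500, both among the 25 highest scores, had the largest MEA differences. AT2G15020 read 7.07, 9.00 and 6.58 on day 5 and 5.02, 5.08 and 4.64 on day 1 with MEA, and it rose by 2.64 (SE 0.42, limma adjusted p = 0.00335). AT1G64500 read 7.05, 9.10 and 6.67 on day 5 and 5.15, 5.60 and 4.87 on day 1, and it rose by 2.41 (SE 0.43, limma adjusted p = 0.00703). In both genes replicate 2 was about as high as the day 5 arrays of the other treatments. Replicates 1 and 3 lay between the days, and without replicate 2 the differences were 1.91 and 1.66.

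AT2G19650, AT4G24700 and AT1G55960 rose with MEA as well. AT2G19650 read 7.72, 8.25 and 7.36 on day 5 and 6.02, 6.13 and 5.96 on day 1 (difference 1.75, SE 0.22, limma adjusted p = 0.000784). AT4G24700 read 6.66, 6.83 and 6.14 on day 5 and 4.89, 5.17 and 4.75 on day 1 (difference 1.61, SE 0.21). AT1G55960 read 8.40, 8.86 and 8.18 on day 5 and 6.77, 6.82 and 6.66 on day 1 (difference 1.73, SE 0.29). In none of the 3 genes did the days overlap.

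AT2G21185 had a small and even difference. It read 8.69, 8.99 and 8.44 on day 5 and 7.85, 7.93 and 7.85 on day 1 with MEA, and it rose by 0.83 (SE 0.12, limma adjusted p = 0.00213). AT5G15950, the gene with the highest score, read 8.03, 9.90 and 8.30 on day 5 and 6.82, 6.85 and 7.03 on day 1 with MEA, and it rose by 1.84 (SE 0.35). The others of the 15 smallest p-values were AT1G32520, AT1G70000, AT3G27350, AT3G44630, AT5G59400, AT1G69160 and AT5G22390, which rose by 0.85 to 1.58. Without MEA day 1 replicate 3 the calls of AT3G27350, AT3G44630, AT5G59400, AT1G69160 and AT5G22390 were lost, at limma adjusted p-values of 0.052 to 0.064, and without the NaCl arrays that of AT3G44630 was lost, at 0.052.

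In 3 genes every MEA day 5 array lay more than 0.5 of the way to the day 5 level of the other treatments. AT5G22390 read 8.09, 7.89 and 8.01 on day 5 and 6.58, 6.47 and 6.54 on day 1 with MEA. Its day 5 signals were 7.85, 8.15 and 8.75 with EAA and 8.24, 8.38 and 7.66 with NaCl, so the 3 treatments overlapped. AT5G59400 read 6.19, 7.07 and 6.30 on day 5 with MEA, against 6.52 to 7.03 with EAA and 6.38 to 6.94 with NaCl. AT1G75180 read 6.61, 7.42 and 6.76 with MEA, against 6.98 to 7.53 with EAA and 7.30 to 7.64 with NaCl. These genes, of which AT1G75180 is outside the naming rule, were picked out after their values had been seen.

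In 8 of the 200 genes the MEA difference was below 0. The lowest was -0.65 in AT1G49450, followed by AT5G05220 at -0.49, AT3G09440 at -0.38, AT2G47780 at -0.38 and AT1G61890 at -0.27. None of these passed the threshold. In AT2G47780 and AT1G61890 the direction rested on single arrays: without MEA day 5 replicate 3 the difference was 0.25 and 0.26. In AT1G49450, AT5G05220 and AT3G09440 the difference stayed below 0 with any 1 MEA replicate left out. With MEA day 5 replicates 1 and 3 both left out it was above 0 in all 5. They are named because they are few, not by a rule set in advance of their values.

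The called genes were also counted by where the difference between days was larger, a split that uses the values that chose the genes, and no test of it was made. Of the 108 genes with the larger EAA difference 5 were called with MEA, or 4.63%, and of the 92 with the larger NaCl difference 33 were called, or 35.9%, where 1.59% of all kept probe sets were called higher. The kept probe sets differ in the same way: 1.2% of those above 0 in both treatments with the larger EAA difference were called higher with MEA, and 6.5% of those with the larger NaCl difference. The MEA difference had a median of 0.67 in the 108 and 0.83 in the 92, while the median SD in the MEA day 5 group was 1.3 in the 108 and 0.82 in the 92. The 3 MEA day 5 arrays thus lay farther apart in the 108 genes. Across the 200 genes the EAA difference minus the NaCl difference had a Pearson's r of -0.48 with the mean place of MEA day 5 replicates 1 and 3. The place is computed from the same EAA and NaCl arrays, so this coefficient is a description of shared arrays.

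The 18 genes with an EAA difference larger by at least 1 were set apart by the same EAA and NaCl values that are described here. Their median signal on day 5 was 9.55, 9.10 and 8.98 with EAA, 5.85, 9.50 and 5.32 with MEA, and 8.36, 6.71 and 7.93 with NaCl. On day 1 all 9 medians lay between 5.55 and 5.89. NaCl day 5 replicate 2 was the lowest NaCl day 5 array in 17 of the 18. That array was also the lowest in 137 of the 200 genes, so its low place is not particular to the 18. The 3 EAA arrays lay above the 3 NaCl arrays on day 5 in 13 of the 18. None of the 18 was called higher with MEA, where 1.59% of all kept probe sets were. Of kept probe sets above 0 in both treatments with the larger EAA difference, 1.2% were called higher with MEA. Nothing is read from these counts.

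AT3G17520 was the extreme of this set, with an EAA minus NaCl difference on day 5 of 3.91. It read 9.93, 10.12 and 10.08 on day 5 with EAA, 5.17, 10.94 and 3.41 with MEA, and 8.18, 5.09 and 5.14 with NaCl. On day 1 it read 4.23 to 5.14 with EAA, 4.44 to 5.03 with MEA and 3.75 to 4.59 with NaCl. Its 3 EAA day 5 arrays were high and alike, 1 MEA array was as high and the NaCl arrays were lower.

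AT3G02480 had the next largest EAA minus NaCl difference on day 5, 2.82. It read 11.15, 10.86 and 11.55 with EAA, 5.57, 10.99 and 4.12 with MEA, and 10.00, 6.52 and 8.59 with NaCl on day 5. With MEA on day 1 it read 6.96, 7.13 and 7.17, between the high and the low day 5 arrays. AT5G01300 read 9.38, 9.26 and 9.48 with EAA, 4.83, 9.92 and 4.79 with MEA and 8.41, 6.42 and 7.41 with NaCl on day 5. The EAA minus NaCl difference of AT5G01300 was 1.96, that of AT2G21820 was 1.70 and that of AT1G24600 was 1.69.

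The 9 genes with a NaCl difference larger by at least 1 were AT5G15950, AT1G64500, AT2G41250, AT2G15020, AT3G56290, AT1G70000, AT5G54130, AT1G65490 and AT4G15430. With MEA 8 of the 9 were called higher, where 1.59% of all kept probe sets were. Of kept probe sets above 0 in both treatments with the larger NaCl difference, 6.5% were called higher with MEA. The 9 were set apart by values that chose the genes, so nothing is read from their count. Without MEA day 1 replicate 1 or 3, or without the NaCl arrays, the calls of AT2G41250, AT3G56290 and AT5G54130 were lost, at limma adjusted p-values of 0.0673 to 0.157. That of AT2G41250 was also lost without MEA day 5 replicate 2, at 0.0613. Their median signal on day 5 was 8.60, 9.02 and 9.12 with EAA, 7.05, 9.10 and 6.67 with MEA, and 9.17, 9.50 and 9.22 with NaCl. On day 1 it was 6.18, 5.89 and 5.95 with EAA, 5.15, 5.60 and 5.21 with MEA, and 5.10, 5.43 and 5.42 with NaCl. The EAA arrays were thus the highest of day 1 in these medians, and the MEA and NaCl arrays lay together there. The choice of the 9 by a larger NaCl difference favours high EAA values on day 1, so nothing is read from this. AT5G54130 is the 1 gene of the 200 with another probe set, which gave differences of 1.81 with EAA, 1.26 with MEA and 3.08 with NaCl.

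**Figure D5:**
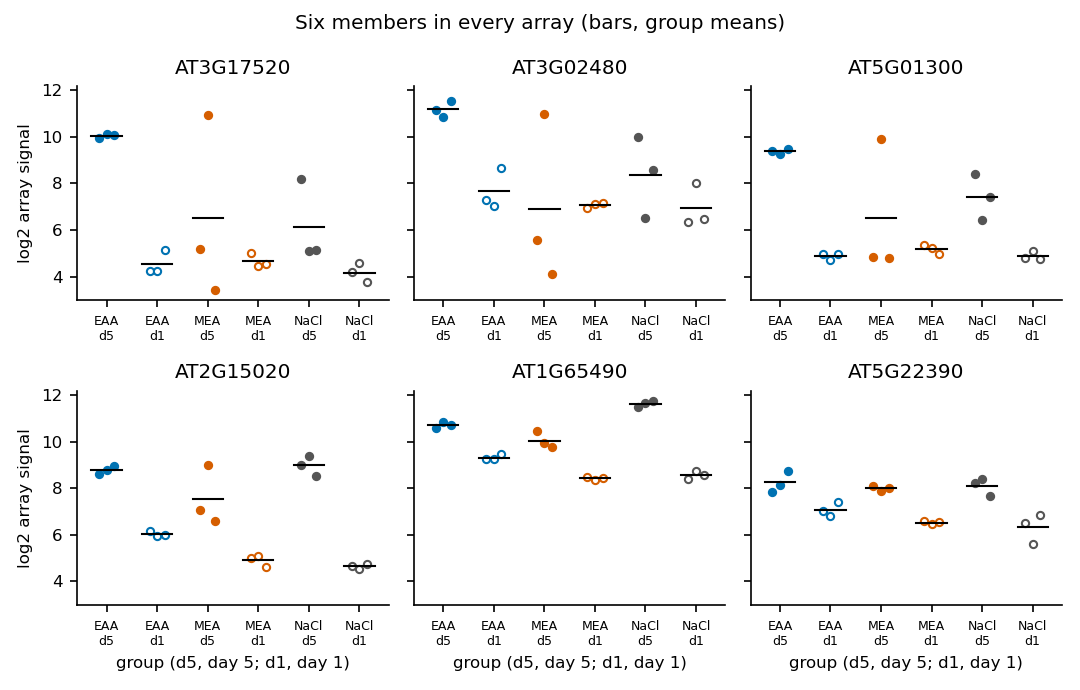
Log2 signals in every array of 6 genes: AT3G17520, AT3G02480 and AT5G01300 in the upper row and AT2G15020, AT1G65490 and AT5G22390 in the lower row; points are arrays, filled for day 5 and open for day 1, and bars are group means. In the upper row 1 MEA day 5 array, at 10.94, 10.99 and 9.92, stands far above the other 2, and in the lower row all 3 MEA day 5 arrays stand above those of day 1.

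Treatments were also set against each other on the same day. The EAA arrays entered the score together with the NaCl arrays, so these values are a description. The EAA minus NaCl difference had a median of 0.14 on day 5 and 0.13 on day 1, and without NaCl day 5 replicate 2 the day 5 median was -0.01. The 3 EAA arrays lay above the 3 NaCl arrays on day 5 in 28 genes and below them in 11, where 5.77% and 8.11% of all kept probe sets did so. On day 1 they lay above in 47 genes and below in 13, where 7.86% and 10.7% did so.

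The lowest EAA minus NaCl differences on day 5 were those of AT4G15430 and AT1G49200, at -1.02 each. AT4G15430 read 4.18, 5.05 and 4.87 with EAA and 5.84, 6.09 and 5.23 with NaCl. AT1G49200 read 4.46, 5.32 and 4.87 with EAA and 5.77, 6.30 and 5.64 with NaCl. In both genes every EAA array was below every NaCl array. AT1G65490, AT2G27420 and AT2G41250 followed at -0.91, -0.85 and -0.79.

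The NaCl arrays entered the score, which favours genes that read high in them on day 5 and low on day 1, so the values of MEA against NaCl are a description and nothing is read from their counts. The MEA minus NaCl difference had a median of -1.04 on day 5 and -0.01 on day 1. On day 5 it was below 0 in 199 of the 200 genes and at or below -1 in 109. The 3 MEA arrays lay below the 3 NaCl arrays on day 5 in 52 genes and above them in none, where 9.3% and 7.29% of all kept probe sets did so. On day 1 they lay below in 17 and above in 12, where 7.33% and 4.34% did so. Without MEA day 5 replicate 2 the day 5 median was -1.65, and replicate 2 taken singly stood 0.07 above the NaCl mean.

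Among pathway genes listed with the earlier results known, few had a named probe set. Of 18 leaf senescence and dark-induced genes 2 were measured, the transcription factor genes WRKY53 and WRKY6, and neither passed in any treatment. Of 15 genes of branched-chain amino acid, lysine and proline breakdown 6 were measured, none passed with MEA, 1 was higher on day 5 with EAA and 1 lower with NaCl. The 1 higher with EAA was AT4G33150, which is not among the 200. It read 10.43, 10.24 and 10.05 with EAA, 8.31, 11.21 and 6.28 with MEA, and 8.88, 6.93 and 7.97 with NaCl on day 5. As in AT3G02480, MEA replicate 2 was the highest MEA array and NaCl replicate 2 the lowest NaCl array. MCCB, which encodes a subunit of methylcrotonyl-CoA carboxylase in leucine breakdown, fell by 0.46 in NaCl (SE 0.13). Over all kept probe sets 15.7% were higher and 20.8% lower on day 5 with EAA, and 14.1% were higher and 16.9% lower with NaCl. None of the abscisic acid and jasmonate genes listed had a named probe set, and of the salicylate genes SAG101 alone did, below the signal minimum.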

How the data were processed

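The members and the gene lists were chosen with earlier results of these data known. The authors deposited 1 table of log2 signals of 22810 probe sets in 18 arrays, as judged from the values. MAS5 is named in the submitters' processing notes; the sources used here do not give its version, the normalization, the log step or the genome build. All values were used as deposited. Control probe sets (64) were left out, and the 13648 of 22746 others whose mean reached the 40th percentile (4.01) were kept. The platform annotation gave 1 gene to 13513 probe sets, several to 503 and none here to 8794; 11798 genes had only a locus code, 6190 of them with a mean of at least 4.01 and 6187 after the named loci were left out. Names came from RefSeq (TAIR10.1). No gene descriptions or sequences were used, so gene classes and promoter motifs are not analysed here.

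A linear model of 6 group means (limma 3.58.1 under R 4.3.3; lmFit, eBayes with trend, 12 residual degrees of freedom) gave the p-values, adjusted by Benjamini-Hochberg within a contrast, with a threshold of 0.05. The fit was tested on simulated data with the same spread in all 6 groups, so the wider spread of the MEA day 5 arrays was not covered. The text names the 25 highest scores, the 15 smallest p-values with MEA, 3 genes on each side of the score threshold, the 5 highest and 5 lowest EAA minus NaCl differences on day 5, listed pathway genes and the 2 genes with a RefSeq name. Alternatives were other scalings, filters, array weights, a replicate block, fewer arrays and each replicate left out; leaving out the NaCl arrays and every alternative of the extract minus NaCl medians were added after the data were seen. The number of arrays limits the precision. Tables and plots used Python 3.11.15, pandas 2.3.3 and matplotlib 3.10.9.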

Additional observations from a re-analysis of the deposited data

How the results depend on the processing

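The count of 38 genes called higher with MEA was 34 to 43 under other scalings, filters and without the intensity trend, 57 with array weights, 16 without the 6 NaCl arrays, 0 with the 6 MEA arrays alone and 185 with MEA day 5 replicates 1 and 3 left out. Leaving out 1 MEA replicate gave 10 to 78. Of all probe sets in the fit, 1.11% to 2.14% were called higher under those scalings, filters and without the trend. The share was 8.03% with array weights, 0.55% without the NaCl arrays and 0% with the MEA arrays alone. With 1 MEA replicate left out it was 0.366% to 4.92%. Probe sets called in all numbered 535; they were 5168 with replicates 1 and 3 left out, 3233 with array weights, 148 without the NaCl arrays, 0 with the MEA arrays alone and 111 to 1756 with 1 replicate left out. The 63 genes whose arrays did not overlap became 199 with replicates 1 and 3 left out and 63 to 112 with 1 replicate left out, where 42.8% and 9.61% to 16.3% of all kept probe sets did not overlap. None of the 200 was called lower except 2 with array weights, AT2G47780 and AT3G09440 (limma adjusted p = 0.00906 and 0.00929), and 3 without MEA day 5 replicate 2. The shares of all kept probe sets called lower in those fits are not given here, so nothing is read from these counts. The median MEA difference of 0.74 became 1.93 with replicates 1 and 3 left out and 0.13 to 1.16 with 1 left out. With the replicate block 37 genes were called, where 1.62% of all kept probe sets were called higher. Of the 37, 35 were among the 38, and of the named genes AT2G36630 lost its call. Deviations of arrays with the same number correlated at -0.44 to 0.43. Arrays with unlike numbers were not compared, so these values cannot tell whether the numbers pair the samples.

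Single genes changed sign chiefly through MEA day 5 replicate 2. With array weights the MEA difference turned below 0 in AT1G24600 (-0.73), AT1G69480 (-0.14), AT2G21820 (-0.65), AT3G46450 (-0.38), AT4G30470 (-0.067), AT4G33905 (-0.49), AT5G01300 (-0.11), AT5G47610 (-0.22) and AT5G53710 (-0.57). All 8 genes below 0 were above 0 with replicates 1 and 3 left out: AT3G02480 (3.90), AT3G28270 (3.03), AT2G47780 (1.88), AT1G61890 (1.198), AT1G49450 (0.95), AT3G09440 (0.63), AT5G05220 (0.55) and AT1G64380 (0.28). AT1G64380, at -0.0099, was also above 0 with array weights (0.088), median centring (0.050) and quantile normalization (0.055). With 1 MEA replicate left out the sign depended on the replicate in 74 of the 200 genes, none of them among the 38 called higher. Of the 57 named genes recomputed under the alternatives 22 were among these, and their ranges were AT1G24600 (-0.92 to 0.60), AT1G49200 (-0.13 to 0.52), AT1G61890 (-0.997 to 0.26), AT1G63840 (-0.094 to 1.32), AT1G64380 (-0.17 to 0.17), AT1G69480 (-0.51 to 1.26), AT2G20560 (-0.17 to 2.29), AT2G21820 (-1.12 to 1.57), AT2G22420 (-0.054 to 1.75), AT2G37900 (-0.11 to 1.28), AT2G47780 (-1.50 to 0.25) and AT3G02480 (-2.24 to 1.19). The others were AT3G13672 (-0.38 to 1.87), AT3G17520 (-0.38 to 3.39), AT3G28270 (-1.65 to 1.08), AT3G46450 (-0.26 to 0.85), AT3G48460 (-0.093 to 1.11), AT4G30470 (-0.17 to 1.60), AT4G33905 (-0.66 to 0.69), AT5G01300 (-0.37 to 2.20), AT5G47610 (-0.29 to 1.77) and AT5G53710 (-0.71 to 0.89). The cause was not tested. The list of 200 shared 180 to 199 genes with those chosen under other scalings or with 1 replicate left out, 160 with a stricter filter and 157 with the EAA or the NaCl arrays alone. Signals near the low end limit the size of differences in 17 genes.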

Other observations

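The 200 genes were spread over all 5 chromosomes much like the genes they were chosen from. Chromosomes 1 to 5 held 28.5%, 13%, 23%, 12% and 23.5% of them, against 27.0%, 14.3%, 20.4%, 14% and 24.3% of the 6187. Of the 199 genes with a place in the RefSeq gene order 15 lay next to another of the 200, or 7.54%, whereas 114 of the 5952 other genes lay next to one of the 200, or 1.92%. The neighbours formed 7 runs, AT1G64490 with AT1G64500, AT1G65490 with AT1G65500, AT1G69790 with AT1G69800, AT1G75170 with AT1G75180, AT3G15760 with AT3G15770, AT5G37540 with AT5G37550, and AT4G30450 with AT4G30460 and AT4G30470. Of the 15 neighbours 3 were called higher on day 5 with MEA, or 20%, against 19% of the 200 and 1.59% of all kept probe sets. No test was made of these shares, and whether neighbouring probe sets share sequence was not tested.

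By rank of the score, the MEA difference had a median of 1.11 in ranks 1 to 25, 1.06 in ranks 26 to 50, 0.83 in ranks 51 to 100, 0.66 in ranks 101 to 150 and 0.63 in ranks 151 to 200. The genes called numbered 7, 7, 8, 8 and 8 in these ranks, or 28%, 28%, 16%, 16% and 16%, where 1.59% of all kept probe sets were called.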
